A study of Mus musculus with 7 samples.

Results

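The GIMAP family (GTPases of immunity-associated proteins) was followed in the hearts of mice that lack lymphocytes, with and without transferred human CD4+ T cells. Its 8 members were taken by gene symbol from the deposited count table of 20343 genes: Gimap1, Gimap3, Gimap4, Gimap5, Gimap6, Gimap7, Gimap8 and Gimap9. Apical heart tissue came from 7 NSG-DR1 mice, given in the labels as strain NSG-DRB1*0101, an immunodeficient strain carrying a human HLA-DR1 transgene. The control group was 4 untreated mice, and the transferred group was 3 mice given human CD4+ T cells, whose hearts were taken 6 weeks later. Both groups carried the transgene. The ages and sexes of the mice, the number of T cell donors and the sequencing batches are not given in the sources used here. The columns held between 16402194 and 25190580 counts over the part of the genome analysed, of which between 5967 and 9161 per heart fell on the family.

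GIMAP proteins are GTP-binding proteins that sit on, or shuttle between, membranes of the secretory pathway, lysosomes and mitochondria. They were first studied in T and B lymphocytes, where several members set how long the cells survive, and transcripts of some members are also known from endothelial cells. NSG mice have no mature T, B or natural killer (NK) cells of their own.

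The genes lie side by side on chromosome 6 (build GRCm38, positions 48647186 to 48770851), with 6 members on the plus strand and 2, Gimap3 and Gimap6, on the minus strand. All 8 gene identifiers and start positions matched RefSeq, which annotates them as protein coding. RefSeq also gave 9 promoter windows for the 8 members. The 250 bases before the start site are shown, 5′ to 3′ on the coding strand, for the members with the highest level per exon length (Gimap6 at chr6:48708245-48708494, minus strand, and Gimap4 at chr6:48684328-48684577, plus strand), for the member with no counts (Gimap7 at chr6:48718371-48718620, plus strand), and for Gimap5 (chr6:48745947-48746196, plus strand). Capitals mark matches, on either strand, to GGAAGT, the core bound by ETS factors, or to TATAAA, the TATA box. In these windows the matches do not overlap each other.
Gimap6: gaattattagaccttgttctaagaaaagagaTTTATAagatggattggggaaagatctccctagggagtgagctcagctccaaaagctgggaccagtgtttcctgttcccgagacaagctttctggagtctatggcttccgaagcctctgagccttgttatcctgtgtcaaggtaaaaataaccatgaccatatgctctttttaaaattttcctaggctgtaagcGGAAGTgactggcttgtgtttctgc
Gimap4: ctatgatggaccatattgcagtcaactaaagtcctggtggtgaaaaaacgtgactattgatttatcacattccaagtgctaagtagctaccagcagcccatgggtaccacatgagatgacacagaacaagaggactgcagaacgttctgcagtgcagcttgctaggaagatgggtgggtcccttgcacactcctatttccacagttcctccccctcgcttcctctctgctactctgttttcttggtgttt
Gimap7: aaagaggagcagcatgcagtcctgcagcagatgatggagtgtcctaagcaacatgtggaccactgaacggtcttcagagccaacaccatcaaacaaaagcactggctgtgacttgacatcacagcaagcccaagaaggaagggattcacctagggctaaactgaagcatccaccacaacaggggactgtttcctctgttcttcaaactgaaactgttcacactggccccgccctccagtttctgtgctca
Gimap5: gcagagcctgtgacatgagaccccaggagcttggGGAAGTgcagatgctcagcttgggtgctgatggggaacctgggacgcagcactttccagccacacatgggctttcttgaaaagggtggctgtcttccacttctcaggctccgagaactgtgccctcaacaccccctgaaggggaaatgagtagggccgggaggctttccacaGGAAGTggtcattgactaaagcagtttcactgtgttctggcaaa

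GGAAGT was found in 2 of the 9 windows, those of Gimap5 and Gimap6, and in 19.7% of all 32851 RefSeq windows of this length. TATAAA was found in the Gimap6 window alone of the 9, and in 12.4% of all windows. These are matches of letters, not measured binding sites.

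Of the 8 members, 7 had counts in every heart, and Gimap7 had 0 counts in all 7 hearts. Levels of different genes are compared here as counts-per-million (CPM) divided by the exon length in kilobases that the table gives. On that scale Gimap6 was highest, at 87.5 ± 7.67 CPM per kilobase (SD, n = 7), and Gimap4 followed at 81.3 ± 8.84 (SD, n = 7). Gimap6 binds an autophagy protein of the GABARAP group, and Gimap4 speeds the death of T cells that have received a death signal. Each lay above 89% of the tested genes per exon length, with 89.9% below Gimap6 and 89.3% below Gimap4. Their order was not fixed: Gimap6 exceeded Gimap4 in 6 of 7 hearts, and the ranges overlapped.

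**Figure D1:**
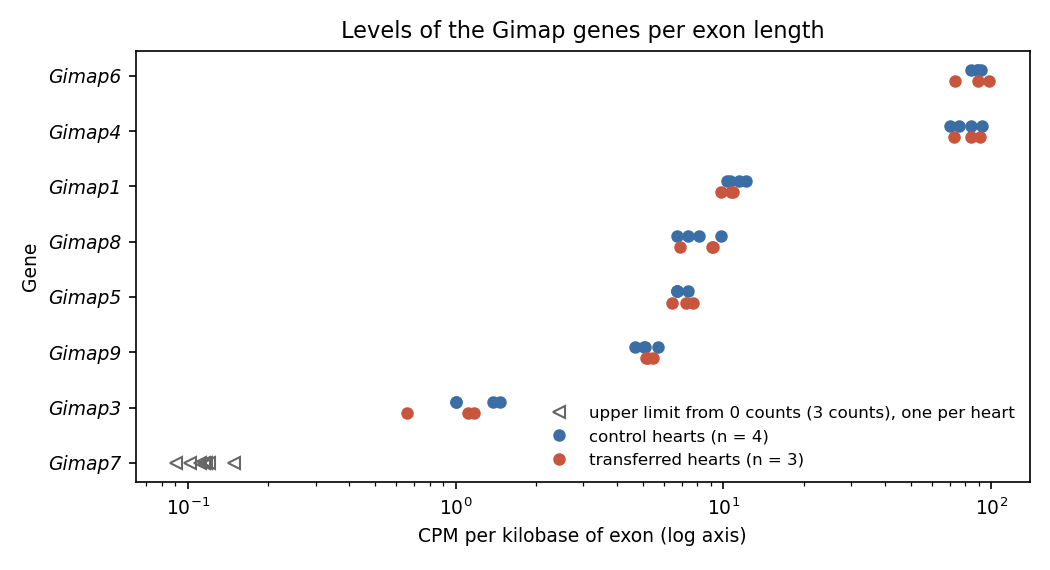
Level of each Gimap gene in CPM per kilobase of exon (log axis), with a point for each control heart (blue, n = 4) and each transferred heart (red, n = 3). Open triangles mark the level of 3 counts, the upper limit taken for the 0 counts of Gimap7 in each heart. Gimap6 and Gimap4 stand between 69.8 and 98.1, apart from the other members, and the colours overlap in each member with counts.

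The other members were much lower. Gimap1, needed for the formation of mature T and B cells, was at 10.8 ± 0.741 CPM per kilobase (SD, n = 7), and Gimap4 was 7.52-fold above it. Gimap8, the longest member, which joins several GTPase domains in 1 protein, was at 8.16 ± 1.203 CPM per kilobase (SD, n = 7). Gimap1 was above Gimap8 in 7 of 7 hearts, although its lowest heart (9.82) nearly met the highest heart of Gimap8 (9.79).

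Gimap5, which keeps naive T cells alive and whose loss causes lymphopenia in rats and mice, was at 6.98 ± 0.465 CPM per kilobase (SD, n = 7). It did not separate from Gimap8, which was higher in 5 of 7 hearts with overlapping ranges. Gimap9 was lower than Gimap5 in 7 of 7 hearts, at 5.20 ± 0.324 CPM per kilobase (SD, n = 7). Gimap3, the close relative of Gimap5, was lowest of the detected members at 1.11 ± 0.268 CPM per kilobase (SD, n = 7). In each heart Gimap5 exceeded Gimap3, by between 4.85 and 11.7 times per exon length.

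Gimap7, a member whose GTPase is switched on when the protein pairs with itself or a relative, was not detectable. With 0 counts in a heart the level was taken as at most that of 3 counts, between 0.115 and 0.189 CPM over the hearts, or 0.0907 to 0.149 CPM per kilobase. Per exon length Gimap9 was therefore at least 34.0-fold higher than Gimap7 in every heart, and Gimap4 at least 607-fold higher. Only counting error enters these limits. The reads carried no molecular identifiers and are not independent molecules, so the limits may be narrower than they should be. The limits hold for counts as the authors assigned them: the transcript unit Gm28053 spans Gimap7 and shares sequence with it, and the settings for strand and for reads with several matches are not given in the sources used here.

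Shares of the family's counts depend on length as well as level. Gimap4 and Gimap6 together took between 77.4% and 82.7% of these counts, with the lowest share in control heart 3 and the highest in transferred heart 1. Gimap8 took between 6.63% and 10.6%, and Gimap1 between 4.10% and 5.17%. Gimap3 took between 0.380% and 0.866%. Each of these shares overlapped between control and transferred hearts.

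The second comparison was between the groups. Transfer of human CD4+ T cells was followed by no change in any tested Gimap gene that passed the test. Of the 7 tested members, 0 had an adjusted p under 0.05 and 0 had an unadjusted p under 0.05 in the edgeR quasi-likelihood test, with adjusted p-values from 0.727 to 0.962. Among all 7667 tested genes 18 passed (0.235%), and 12.4% had an unadjusted p under 0.05. DESeq2 also called 0 members, against 250 of the 8365 genes it gave an adjusted p (2.99%). With limma-voom 0 of 7667 genes passed (0%; 907 at an unadjusted p under 0.05), so it called no member either. The groups overlapped in all 7 tested members, and they did not overlap in 11.2% of all tested genes. With 7 genes, counts of 0 are near all of these shares, so they do not set the members apart from other genes. Gimap7 did not pass the filter on low counts and was not tested.

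The 7 hearts of Gimap4 were close together. Its level was 126, 152, 137 and 167 CPM in the control hearts and 165, 152 and 131 CPM in the transferred hearts. Its highest and its lowest value were both in control hearts. The means were 145.6 ± 17.7 CPM (SD, n = 4) and 149.2 ± 16.9 CPM (SD, n = 3). The fitted log2 difference was 0.04, with 0.11 as its standard error (edgeR adjusted p = 0.932). The 95% interval of the log2 fold change ran from -0.22 to 0.29, that is from 0.861-fold to 1.22-fold.

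Gimap6 stood at 147, 142, 135 and 144 CPM in the control hearts and at 158, 144 and 118 CPM in the transferred hearts. The transferred hearts lay on both sides of the controls, with transferred heart 1 highest and transferred heart 3 lowest of all. The means were 141.9 ± 4.998 CPM (SD, n = 4) and 140.05 ± 20.4 CPM (SD, n = 3). The log2 fold change was -0.02 with a 95% interval from -0.24 to 0.20 (edgeR adjusted p = 0.962).

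**Figure D2:**
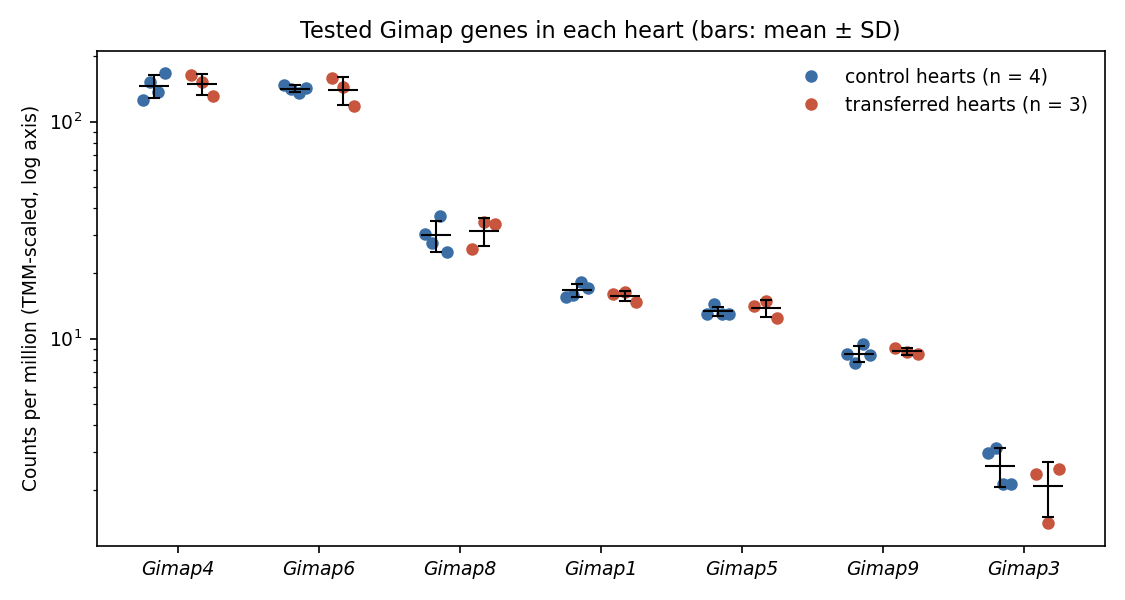
CPM of the 7 tested Gimap genes (log axis) with a point for each heart, control in blue (n = 4) and transferred in red (n = 3), and bars for the mean and SD. The groups overlap in each gene, and Gimap3, below 3.2 CPM, has the widest relative spread.

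Among the members with a hydrophobic tail that anchors them in membranes, Gimap1 read 15.6, 15.9, 18.2 and 17.2 CPM in the control hearts and 16.0, 16.3 and 14.8 CPM in the transferred hearts. Transferred heart 3 lay below all controls and the other transferred hearts within their range. Its log2 fold change was -0.09 with a 95% interval from -0.34 to 0.16 (edgeR adjusted p = 0.813). Gimap5 read 13.0, 14.4, 13.0 and 13.0 CPM in the control hearts and 14.1, 14.96 and 12.5 CPM in the transferred hearts. The transferred hearts of Gimap5 thus held both the highest and the lowest value, and its log2 fold change was 0.05 with a 95% interval from -0.21 to 0.32 (edgeR adjusted p = 0.899).

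Gimap3 had the largest fitted difference, on few counts. It had 61, 73, 56 and 34 counts in the control hearts and 47, 30 and 51 in the transferred hearts, or 2.97, 3.14, 2.15 and 2.15 CPM against 2.38, 1.41 and 2.52 CPM. Only transferred heart 2 lay below all control hearts. The log2 fold change was -0.31 with a 95% interval from -0.95 to 0.33 (edgeR adjusted p = 0.727), so a fall to 0.517-fold or a rise to 1.26-fold both lie within it, and without transferred heart 2 the log2 fold change was -0.09.

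Gimap8 read 30.4, 27.7, 36.7 and 25.2 CPM in the control hearts and 25.9, 34.3 and 33.9 CPM in the transferred hearts. Each transferred heart fell within the control range, and the log2 fold change was 0.06 with a 95% interval from -0.27 to 0.40 (edgeR adjusted p = 0.903). Gimap9 read 8.46, 7.75, 9.44 and 8.39 CPM in the control hearts and 9.07, 8.65 and 8.50 CPM in the transferred hearts. All transferred values of Gimap9 again lay inside the control range, and its log2 fold change was 0.04 with a 95% interval from -0.27 to 0.34 (edgeR adjusted p = 0.941).

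For the 6 tested members other than Gimap3, the outermost 95% limits were 0.790-fold and 1.32-fold. A p-value that misses the threshold does not show that the groups were equal, but changes beyond these limits lie outside the intervals. The absolute log2 fold change was under 0.1 in these 6 members, and its median over the 7 tested members was 0.05, against 0.13 over all tested genes. The SD of log2 CPM over the 7 hearts had a median of 0.13 in the members and 0.19 in all tested genes. Genes were not matched on level for these medians, so they do not mark the family as steadier than other genes. In bulk tissue, fewer cells of a type and less RNA per cell cannot be told apart, and this holds for each value here.

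The sum over the family was 344, 363, 352 and 377 CPM in the control hearts and 390.3, 371 and 321 CPM in the transferred hearts. The mean of the transferred hearts was 1.01 times that of the controls, and the transferred hearts again held both the highest and the lowest sum. The ratio was 0.966 without transferred heart 1 and 1.06 without transferred heart 3. The animals' identifiers have 2 forms, a letter prefix in 1 heart of each group and numbers alone in 3 control and 2 transferred hearts, and the labels do not say what the form stands for. Within the hearts with numbers alone the members' log2 fold changes ran from -0.33 for Gimap3 to 0.20 for Gimap8, and the ratio of the sums was 0.952. No gene of any kind passed the edgeR test in those hearts (0 of 7760, 0%; 1054 at an unadjusted p under 0.05), so that fit says nothing about the members' calls. Between the 2 hearts with the prefix, where no test was possible, they ran from -0.32 for Gimap3 to 0.38 for Gimap4.

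Position in the genome was examined next, through the 5 tested genes on each side of the cluster. None of these 10 genes passed the edgeR test, against 0.235% of all tested genes, and in 2 of the 10 the groups did not overlap, against 11.2%. Those 2 genes, Tmem176b and Tmem176a, encode related membrane proteins of myeloid cells and are the tested genes that follow Gimap3 on the chromosome. Tmem176b read 124, 117, 126 and 138 CPM in the control hearts and 168, 220.3 and 154 CPM in the transferred hearts, each transferred heart above each control heart. Its log2 fold change was 0.52 with a 95% interval from 0.25 to 0.78 (edgeR adjusted p = 0.117). For Tmem176a it was 0.49 (edgeR adjusted p = 0.269). These genes overlap on opposite strands, as do Rarres2 and Lrrc61, and their reads cannot be told apart where counting ignores strand. On the other side, Rarres2, which encodes the chemoattractant chemerin, differed by 0.27 on the log2 scale with overlapping groups (edgeR adjusted p = 0.378). The remaining neighbours, Lrrc61, Repin1, Zfp775, AI854703, Gpnmb, Malsu1 and Tra2a, had log2 fold changes between -0.35 (Gpnmb) and 0.19 (Tra2a).

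**Figure D3:**
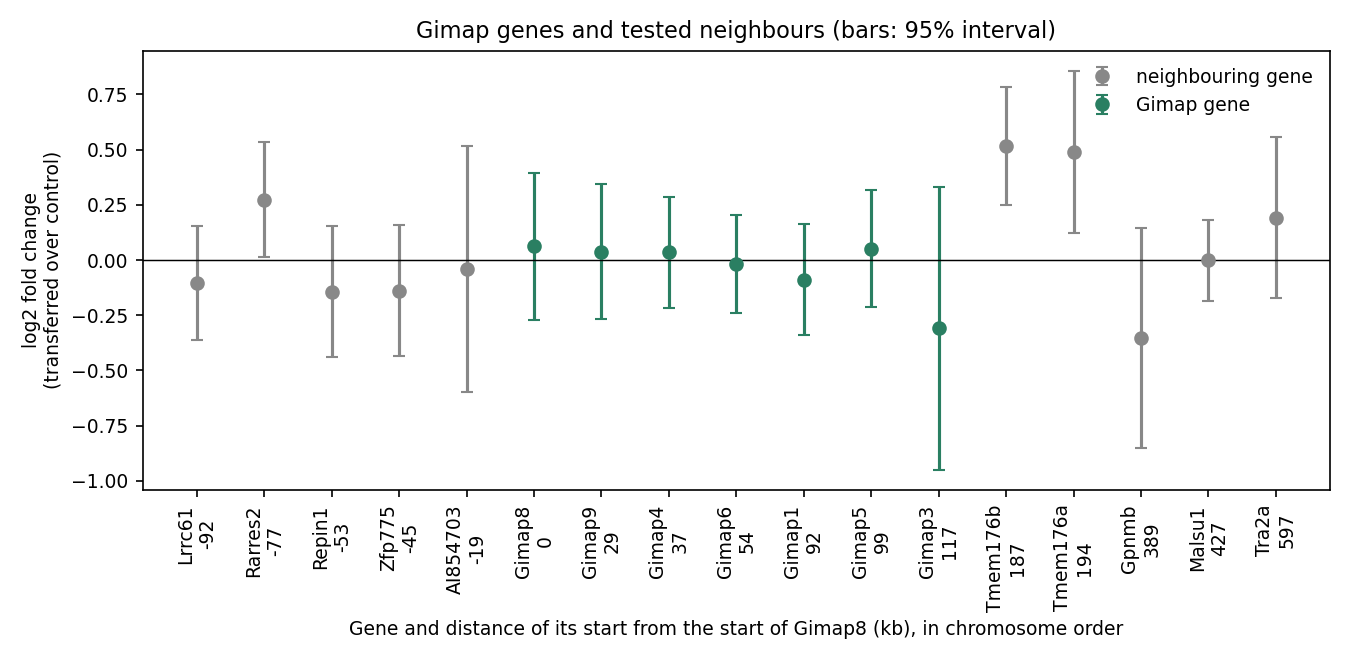
Log2 fold change (transferred over control) with its 95% interval for the 7 tested Gimap genes (green) and the 5 tested genes on each side (grey), in chromosome order, with the distance in kilobases from the start of Gimap8 under each name. The intervals of the Gimap genes all include 0, and those of Rarres2, Tmem176b and Tmem176a do not.

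Gimd1, a gene outside the cluster on chromosome 3 whose annotation names a GIMAP-type domain, had 0 counts in all 7 hearts.

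Lymphocyte markers were then read beside the family. Of the T cell list, 14 of 25 genes were in the table, and 10 of these 14 were under the filter on low counts. Together those 10 genes had between 8 and 46 counts per control heart and between 19 and 44 per transferred heart. The T cell receptor constant genes Trbc1 and Trbc2 had 0 counts in all hearts, and the T cell kinase gene Lck had between 0 and 10 counts per heart. Of the 4 T cell list genes that could be tested, Cd28, which encodes a costimulatory receptor, was the most abundant, at 28.6 ± 3.79 CPM (SD, n = 4) against 26.1 ± 3.803 CPM (SD, n = 3). Of these 4 genes 0 passed the edgeR test, against 0.235% of all tested genes, so that with 4 genes the count is near the background. Cd247, which encodes the zeta chain of the T cell receptor complex, had an unadjusted p under 0.05, as did 12.4% of all tested genes, with a lower value in transferred hearts (log2 fold change -1.06, edgeR adjusted p = 0.278). Cd4 and Ctla4 did not reach that level. The summed T cell list was between 31.9 and 39.4 CPM in control hearts and between 29.5 and 37.8 CPM in transferred hearts. The counts are of mouse genes on the mouse build GRCm38.p6, so this sum does not measure how many human T cells were present. Whether these rows, or the Gimap rows, hold any reads of the transferred human cells was not tested.

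B and NK cell markers were also scarce. The B cell gene Pax5 and the NK cell genes Ncr1, Klrb1c, Klrc1 and Cd160 had 0 counts in all hearts. The 8 B cell genes under the filter had at most 13.5 counts together in a heart, and the 8 NK cell genes under it at most 4.5. The summed B cell list was higher in each transferred heart than in each control heart, 9.27 to 11.0 CPM against 6.33 to 8.83 CPM. Most of that sum was Cd37 and Bank1, neither of which passed the edgeR test (adjusted p = 0.127 and 0.925). Cd37, a tetraspanin of white blood cells in general, had a log2 fold change of 0.77. Klra8, a gene of a large receptor family in which counts were fractional, made up nearly all of the NK cell sum, and its log2 fold change was -0.76 (edgeR adjusted p = 0.349). Per exon length the mean over the 7 hearts was 81.3 CPM per kilobase for Gimap4 and 6.37 for Cd28. Which cells the Gimap transcripts came from was not tested.

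Endothelial genes were present throughout. Of the endothelial list, 19 of 26 genes were in the table, and all 19 were tested. Cdh5 and Pecam1 were among the listed genes not in it. Their sum was between 9820 and 11257 CPM in control hearts and between 10000 and 11552 CPM in transferred hearts, led per exon length by Fabp4, Cd36 and Aqp1. As a share of the endothelial sum, the Gimap sum was 3.40% ± 0.158 (SD, n = 4) without transfer and 3.36% ± 0.250 (SD, n = 3) with it. Cd36, which encodes a fatty acid transporter, made up 45.6% to 47.4% of the endothelial sum in control hearts and 49.0% to 50.8% in transferred hearts, so the share rests to a large part on this gene. With Cd36 left out of the sum, a choice made after its values were seen, the share was 6.33% ± 0.270 (SD, n = 4) without transfer and 6.69% ± 0.628 (SD, n = 3) with it, and the groups overlapped. The median log2 fold change was 0.02 over the endothelial list, 0.04 over the 7 tested Gimap genes and -0.002 over all tested genes. Within the endothelial list 2 of 19 genes passed the edgeR test, both lower, against 0.104% of all tested genes called lower, and 0 passed in the higher direction. They were the water channel gene Aqp1, with a log2 fold change of -1.01, and the apelin receptor gene Aplnr, with -0.91 (edgeR adjusted p = 0.0384 for both).

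Of the 19 endothelial genes, 12 had fitted values above 0. At an unadjusted p under 0.05, 3 were higher and 3 lower, against 12.4% of all tested genes in both directions (550 higher and 404 lower of 7667). Those that did not pass after adjustment, named here after their values were seen, were Vwf, Emcn and Calcrl, with higher values in transferred hearts, and Tie1, with lower ones. Vwf, which encodes von Willebrand factor, averaged 106.1 ± 21.9 CPM (SD, n = 4) without transfer and 239 ± 123 CPM (SD, n = 3) with it, and every transferred heart lay above every control heart. Its log2 fold change of 1.17, the largest in size of the list, did not pass (edgeR adjusted p = 0.200) and was 0.67 without transferred heart 2. Tie1, which encodes an endothelial receptor tyrosine kinase, was between 221 and 251 CPM in control hearts and between 184 and 202 CPM in transferred hearts, so its groups did not overlap (log2 fold change -0.28, edgeR adjusted p = 0.185). Emcn and Calcrl overlapped between the groups, with log2 fold changes of 0.26 and 0.50 (edgeR adjusted p = 0.350 and 0.349). The value of Calcrl rested on transferred heart 2, at 116.9 CPM against 64.9 and 72.4 CPM in the other transferred hearts and 53.6 to 73.0 CPM in control hearts, and was 0.20 without it.

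The calls of Aqp1 and Aplnr were lost when any 1 control heart or transferred heart 2 was left out, in the hearts with number identifiers alone, with the identifier form as a covariate (edgeR adjusted p = 0.0682 for both) and with limma-voom (adjusted p = 0.0698 for both). In these fits 0 genes of the whole table passed, or 1 without control heart 3. Over all 16 alternatives the log2 fold change lay between -1.15 and -0.90 for Aqp1 and between -0.99 and -0.74 for Aplnr.

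Gimap4 was set against these genes within each heart. The ratio of Gimap4 to Aqp1 CPM lay between 0.156 and 0.189 in control hearts and between 0.322 and 0.427 in transferred hearts. The log2 ratio was 1.05 higher in transferred hearts. For Aplnr the log2 ratio of Gimap4 to it was 0.95 higher, and for Tmem176b the difference was -0.46. These 3 genes were chosen with their values known, so the ratios are a description and no test was made of them.

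The summed level of the macrophage list was between 468 and 695 CPM in control hearts and between 831 and 1246 CPM in transferred hearts, with no overlap. All 10 tested genes of this list had fitted values above 0, with a median log2 fold change of 0.90, and 2 of them passed the edgeR test, against 0.130% of all tested genes called higher. These were the complement gene C1qb (0.98) and the mannose receptor gene Mrc1 (0.77). C1qa and C1qc, which encode the other chains of the same complement protein and with C1qb were the most abundant of the list per exon length, had log2 fold changes of 0.93 and 0.84 and did not pass (edgeR adjusted p = 0.0618 for both). The number of macrophage genes called was read beside the number called over the whole table in the same fit. It was 0 where 0 genes passed in all (without control heart 1, 2 or 4, without transferred heart 2, in the hearts with number identifiers alone, with the identifier form as a covariate and with limma-voom). It was also 0 without control heart 3, where 1 gene passed in all, and without transferred heart 1, where 27 did. It was 7 of 140 without transferred heart 3, 5 of 35 with total count scaling, 4 of 81 when all genes with a count were kept and 10 of 250 with DESeq2. Over all 16 alternatives the log2 fold change lay between 0.86 and 1.10 for C1qb and between 0.69 and 0.87 for Mrc1. The list was written with earlier results of these data known. In the same hearts the Gimap sum overlapped between the groups. Heart muscle was checked by its markers: Tnnt2, Tnni3, Actc1 and 6 more cardiomyocyte genes were all tested, 0 of 9 passed in the edgeR test with 0 at an unadjusted p under 0.05 (0.235% and 12.4% of all tested genes), and their median log2 fold change was -0.02. With 9 genes a count of 0 is near those shares.

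**Figure D4:**
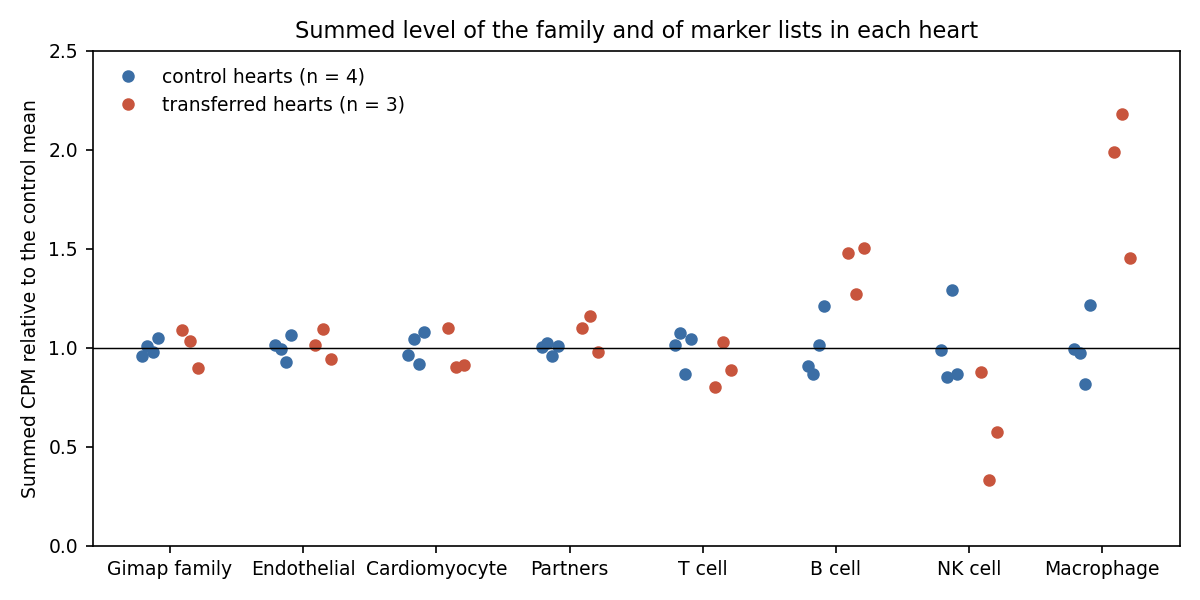
Summed CPM of the Gimap family and of each list of marker or partner genes, relative to the mean of the control hearts (line at 1), with a point for each control heart (blue, n = 4) and transferred heart (red, n = 3). The Gimap points of both groups lie between 0.896 and 1.09, and the macrophage points of the transferred hearts lie between 1.45 and 2.18.

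Genes whose proteins are known to work with GIMAP proteins were also read. The list held 12 genes, of which 7 were in the table and tested. Of these, 0 passed in either direction in the edgeR test and 0 had an unadjusted p under 0.05, against 0.235% and 12.4% of all tested genes, so that with 7 genes the counts are near the background. The median log2 fold change was 0.12. That median was 0.0063 without transferred heart 2 and 0.20 without transferred heart 3. In the apoptosis group, Bcl2, the survival factor of lymphocytes, averaged 40.9 ± 3.24 CPM (SD, n = 4) without transfer and 33.1 ± 8.37 CPM (SD, n = 3) with it (log2 fold change -0.30). Mcl1, another survival factor, had a log2 fold change of 0.23, Bcl2l1 of 0.20, Bcl2l11 of 0.14 and Bax of 0.07. Gabarapl1, of the autophagy group, had a log2 fold change of -0.10, and the lysosomal membrane gene Lamp1 of 0.12.

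Over the 7 hearts the mean profile of the 7 tested members had an SD of 0.04 on the log2 scale, against 0.09 to 0.31 for single members. Averaging over 7 genes narrows the spread by itself. The genes most like it, by the root-mean-square difference of centred log2 CPM among 7643 genes that varied at least as much, were Tsg101, Galt, Usf2, Nap1l4 and Rbck1, with differences of 0.02 to 0.03. A profile narrowed by averaging is alike to single genes of small spread, so nothing about the family is read from this likeness.

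Reads of related members can be hard to place. In the GENCODE M21 transcripts (build GRCm38), Gimap3 and Gimap5 shared 83 words of 75 bases, the read length, which is 3.32% of the words of Gimap3. Gimap4, Gimap6, Gimap8 and Gimap9 shared none with another gene. Of the words of Gimap1, 33.2% also occurred in other genes, mostly in Gimap1os, which is antisense to it, and it is not stated whether strand was used in counting. Gm28053, a transcript unit spanning Gimap7 to Gimap5, shared 124 words with Gimap1, 80 with Gimap5 and 7 with Gimap7. The 7 shared words are 0.310% of the words of Gimap7. Fractional counts, as arise when a read is divided, were present for Gimap1 and Gimap5 in 2 hearts each and for Gimap4 and Gimap9 in 1 heart each. The values of Gimap1 are therefore uncertain as to strand, the 0 counts of Gimap7 as to how reads were assigned, and those of Gimap3 and Gimap5 as to a small share of their reads.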

How the data were processed

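RNA from 7 hearts was sequenced. The submitters' processing notes name bcl2fastq 2.20.0.422, cutadapt 2.5, STAR 2.7.2b, featureCounts 1.6.4 and DESeq2 1.22.2 and the build GRCm38.p6, with settings not given in the sources used here. The authors deposited estimated counts per gene that were not normalized: 4.63% of values were fractional, and all were rounded before testing. The exon length in bases is, per the file headers, the combined length of a gene's exons. The 20343 complete rows were used (1 broken last row was dropped), and they cover chromosomes 1 to 7 and part of 8. Column totals over this part were 16402194 to 25190580 counts, so 3 counts correspond to 0.115 to 0.189 CPM, and scaling rests on this part.

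Genes were filtered with filterByExpr, scaled by TMM and tested with the quasi-likelihood test of edgeR 4.0.16 (robust estimation, R 4.3.3) on all 7667 genes that passed, with Benjamini-Hochberg adjustment and a threshold of 0.05. The 95% intervals use the standard error from the F statistic and a t quantile. Alternatives used RLE, upper-quartile or total count scaling, all genes with at least 1 count, DESeq2 1.42.0, limma-voom (limma 3.58.1), unrounded counts, the identifier form as a covariate, hearts with number identifiers only, and each heart left out. Counts of called endothelial and macrophage genes under these, the family sum in hearts with number identifiers and the endothelial sum without Cd36 were added after seeing the data. The members and lists were chosen with earlier results of these data known. Genes named are all members, of each list the 3 highest tested genes per exon length (or fewer, where fewer were tested) and those past the threshold, the 5 tested neighbours on each side and the 5 most alike genes (log2 of CPM plus 0.5); other list genes were named after their values were seen. Fits were tested on simulated data. Replicates are separate mice by their identifiers, numbered in accession order.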

Additional observations from a re-analysis of the deposited data

Results flagged for a closer look

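In the 4 control hearts, 41 values were checked for a heart far from the other 3. They covered the tested members, the neighbours, the sums of the family and of each marker or partner list, and shares and ratios of genes and sums. About 2.05 would be marked by chance. The only one marked was Gimap5, at 14.4 CPM in control heart 2 against 13.00 to 13.03 CPM in the others.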

How the results depend on the processing

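No Gimap gene passed the threshold in any of the 16 alternatives, of which those with 0 calls over the whole table could call none, with adjusted p-values of at least 0.606, and 0 members had an unadjusted p under 0.05 in any of them. Gimap1 and Gimap3 kept a log2 fold change below 0 in all 16. Values near 0 changed sign in 9 cases. Within the hearts with number identifiers Gimap4 was at -0.10. The fits that each left out 1 heart gave -0.040 to 0.12 for Gimap4, -0.0068 to 0.12 for Gimap5, -0.11 to 0.091 for Gimap6, -0.011 to 0.18 for Gimap8 and -0.0055 to 0.093 for Gimap9. Leaving out 1 heart moved the ratio of the Gimap sums from 1.01 to between 0.966 and 1.06, and hearts with number identifiers alone gave 0.952. Against 18 genes past the threshold over the whole table, 35 passed with total count scaling, 81 when all genes with a count were kept, 250 with DESeq2, and with limma-voom, the identifier covariate and the hearts with number identifiers 0 each (907, 973 and 1054 at an unadjusted p under 0.05). Leaving out 1 heart gave 0 to 140. With 1 heart left out the count of endothelial genes went from 2 to between 0 and 2, and that of macrophage genes from 2 to between 0 and 7. Both counts were 0 with limma-voom, the identifier covariate and the hearts with number identifiers, and that of macrophage genes was 5 with total count scaling, 4 with all genes with a count and 10 with DESeq2. With 1 heart left out the median log2 fold change ran from 0.0062 to 0.11 for the endothelial list, -0.37 to -0.070 for the T cell list, -1.15 to -0.47 for the NK cell list (Klra8 alone), -0.13 to 0.012 for the cardiomyocyte list and 0.0063 to 0.20 for the GIMAP partner list. For these shifts the cause was not tested. No paired analysis was possible because the groups share no more than 1 number in their labels. Gimap3 had 30 to 73 counts per heart, and Gimap7, with 0, can be given only as an upper limit.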
